A study of Mus musculus with 21 samples.

Results

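The 10 transcripts described here are 9 genes switched on by the tumour suppressor p53 (Cdkn1a, Mdm2, Trp53inp1, Bbc3, Bax, Ccng1, Phlda3, Zmat3 and Sesn2) and the long noncoding RNA Lncpint, out of 28987 gene identifiers measured. The 9 genes were taken as known p53 targets. Lncpint was chosen by its measured levels: in these same batch 1 libraries its knockout difference had been seen to differ between 2 kinds of blood progenitor. Its batch 1 levels are therefore given as a description, without a test, and only its batch 2 levels were tested. Its splice fractions, which the choice did not use, were tested in both batches. All 10 had a row under their symbol, and all 10 passed the filter of 1 TPM (a transcript abundance scaled by length and library total) in 3 or more libraries in each of the fits used.

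p53 is a transcription factor that is held low by Mdm2, a ubiquitin ligase that p53 itself induces, and that accumulates after DNA damage and other stress. Its targets stop the cell cycle (Cdkn1a, which encodes the CDK inhibitor p21), start mitochondrial cell death (Bax and Bbc3, which encodes PUMA) or adjust metabolism and p53 itself. In the haematopoietic stem cell, p53 and p21 are known for their part in quiescence and in the response to irradiation. Lncpint is a long noncoding RNA that was described in mouse cells as p53-induced and as associated with Polycomb repressive complex.

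The series asked what the retinoid X receptors, ligand-activated nuclear receptors, do in blood stem cells. RNA came from 5 ng samples of lineage-negative mouse bone marrow cells that had been sorted as long-term haematopoietic stem cells (LT-HSC) or as multipotent progenitors (MPP, here MPP3 and MPP4) from animals that were, as the protocol is read here, pooled. Batch 1 held knockout MPP and floxed control MPP, and knockout LT-HSC and floxed control LT-HSC. The batch 1 knockouts carried VaviCre and Rxrabfl/fl, and their controls Rxrabfl/fl without Cre. Batch 2 held LT-HSC only: Vav1Cre+Rxrabfl/fl with a further floxed allele (Myclfl/+ in the titles, Myc in the descriptions), Vav1Cre+Rxrabfl/fl alone, and a Cre control (Vav1Cre+WT) without floxed alleles. Each of the 7 groups had 3 libraries. The Vav promoter drives Cre throughout the blood lineage. The labels used here give no age. The kind of control changed with the batch, so the 2 cannot be told apart.

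The 21 libraries were deposited as TPM, which keeps no read depth, so the counting error behind a value is unknown. A single gene without a symbol held 10.6% to 51.8% of a library's TPM, with the top value in floxed control LT-HSC replicate 2. Genes with at least 1 TPM numbered 13923 to 14870 in batch 1 knockout LT-HSC, against 12455 to 13249 in floxed control LT-HSC. For that reason each comparison was made on the deposited values and again after every library was divided by a median-of-ratios size factor (0.661 to 1.46); the second scale is called rescaled below. The LT-HSC and MPP markers fitted the labels: summed MPP markers had 550 to 715 TPM in MPP, against 21.9 to 85.4 TPM in LT-HSC, and summed LT-HSC markers had 98.9 to 143 TPM in MPP, against 216 to 660 TPM in LT-HSC. A splice junction that skips an Rxra exon had an inclusion fraction of 0.938 in the 1 batch 1 knockout LT-HSC library with a value, and of 1.00 and 0.50 in the 2 knockout MPP libraries with one. It had fractions of 0.647, 0 and 1.00 with the Myc allele. It had fractions of 0, 0.0127 and 0 in the batch 2 Vav1Cre+Rxrabfl/fl libraries, against 0 in all 3 Cre controls, so these are called the labelled knockouts throughout, and no direction is drawn for them as true knockouts.

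The members lie on 8 chromosomes in GRCm38: Phlda3 on 1, Zmat3 on 3, Trp53inp1 and Sesn2 on 4, Lncpint on 6, Bbc3 and Bax on 7, Mdm2 on 10, Ccng1 on 11 and Cdkn1a on 17. Upstream windows are shown because the p53 response element, a pair of decamers, is the sequence through which p53 acts on its direct targets. The 4 windows shown differ in how much of a match they hold. RefSeq windows from 250 bases before to 50 after the start (build GRCm38.p6) were found for 8 members, 11 windows in all; Trp53inp1 and Zmat3 had none in the table used. Both strands were searched for the p53 consensus decamer. Capitals mark decamers of the match, and lower case marks the flanks.
Cdkn1a, chr17:29090729-29090978, plus strand: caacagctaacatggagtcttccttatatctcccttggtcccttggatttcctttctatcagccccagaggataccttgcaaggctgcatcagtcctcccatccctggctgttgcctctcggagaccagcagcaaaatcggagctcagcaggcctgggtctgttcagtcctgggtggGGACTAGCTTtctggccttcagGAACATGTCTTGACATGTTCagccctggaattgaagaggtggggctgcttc
Bax, chr7:45467054-45467139, minus strand: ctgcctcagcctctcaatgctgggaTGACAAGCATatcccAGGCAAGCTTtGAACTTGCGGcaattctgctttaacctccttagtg
Mdm2, chr10:117710910-117710969, minus strand: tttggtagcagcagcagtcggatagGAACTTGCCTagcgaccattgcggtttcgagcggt
Ccng1, chr11:40755437-40755496, minus strand: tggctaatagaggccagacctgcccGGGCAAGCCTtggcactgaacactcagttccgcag

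The Cdkn1a match spans 73 to 32 bases before the upstream of its 2 annotated starts, and its other window, chr17:29093519-29093818, had none. Bax had a match between 216 and 181 bases before its start, while Mdm2 and Ccng1 each had a single decamer, 186 to 177 and 185 to 176 bases before theirs. A full decamer was found in 4 of the 11 member windows and in 7.13% of 32851 RefSeq windows of the same length. A pair of decamers up to 13 bases apart with at most 2 mismatches was found in Cdkn1a and Bax and in 1.75% of all windows. The windows of Bbc3, Phlda3, Sesn2 and Lncpint held no decamer. Sequence outside the windows was not searched, so a gene without a match here may hold an element elsewhere. These matches describe letters in a short window and not binding.

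Levels differed widely between the members. TPM is scaled by transcript length, so levels can be set side by side: in floxed control LT-HSC, Cdkn1a averaged 70.8 ± 42.0 TPM and Mdm2 36.5 ± 4.97 TPM, while Zmat3, an RNA-binding zinc finger protein, averaged 1.79 ± 0.874 TPM (SD, n = 3). Mdm2 was among the steadiest, at 24.5 to 55.3 TPM over the 21 libraries, a 2.25-fold range. Cdkn1a ran from 14.6 to 814 TPM, a 55.7-fold range. Phlda3, a repressor of Akt signalling, reached 1 TPM in 9 of 21 libraries only, so its fold changes rest on low values. No member was at 0 in any library.

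Lncpint, the member chosen for its pattern, was lower in knockout MPP than in any other batch 1 group. It had 5.11, 6.56 and 5.17 TPM in knockout MPP, against 12.9, 15.1 and 11.8 TPM in floxed control MPP, and these groups do not overlap. It had 13.01, 19.9 and 19.0 TPM in knockout LT-HSC, against 9.95, 8.28 and 13.9 TPM in floxed control LT-HSC, and these overlap. In batch 2 it had 1.97, 9.16 and 22.2 TPM with the Myc allele, 4.90, 6.03 and 3.28 TPM in the labelled knockouts, and 2.28, 3.88 and 3.26 TPM in the Cre controls.

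Ordered by their means, the groups ran from knockout LT-HSC of batch 1 (17.3 ± 3.75 TPM) through floxed control MPP (13.3 ± 1.70 TPM), the Myc allele group (11.1 ± 10.3 TPM) and floxed control LT-HSC (10.7 ± 2.90 TPM) to knockout MPP (5.61 ± 0.818 TPM), the labelled knockouts (4.74 ± 1.38 TPM) and the Cre controls (3.14 ± 0.806 TPM; SD, n = 3 each). Among neighbours in this order, only floxed control LT-HSC and knockout MPP did not overlap. The LT-HSC libraries of batch 1 lay at 8.28 to 19.9 TPM (median 13.5 TPM) and those of batch 2 at 1.97 to 22.2 TPM (median 3.88 TPM).

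**Figure D1:**
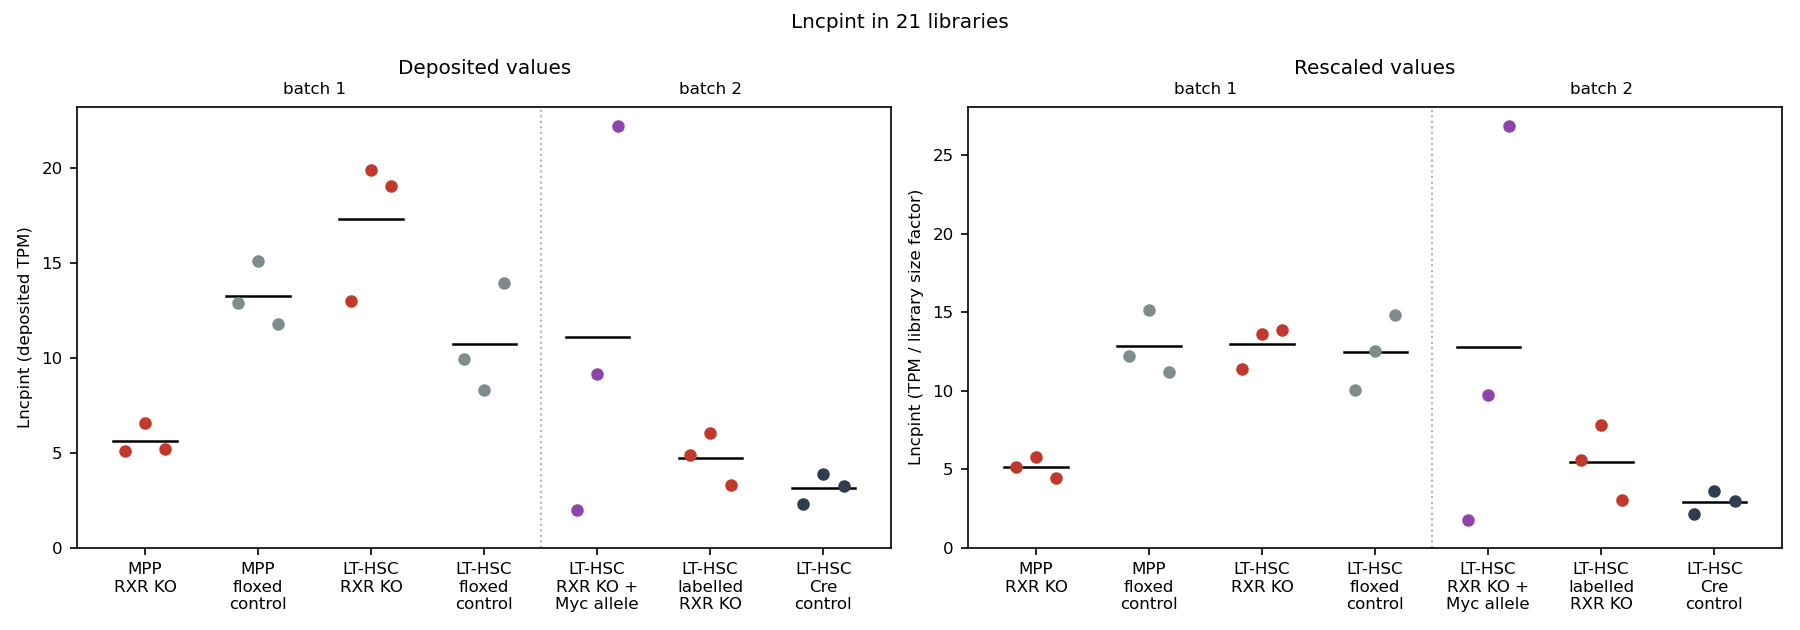
Lncpint level in each of the 21 libraries, as deposited TPM (left panel) and divided by the library size factor (right panel), by group; points are libraries and lines are group means. On the deposited scale knockout MPP sit at 5.11 to 6.56 TPM, below floxed control MPP at 11.8 to 15.1 TPM, and the Myc allele group spreads from 1.97 to 22.2 TPM.

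On the log2(TPM + 1) scale the Lncpint difference was -1.11 (SE 0.22) in MPP, knockout minus floxed control, and +0.65 (SE 0.22) in LT-HSC. Their difference, MPP minus LT-HSC, was -1.76 (SE 0.30). The MPP value kept its size after rescaling (-1.17), where the values were 5.12, 5.81 and 4.46 in knockout MPP against 12.2, 15.1 and 11.2 in floxed control MPP. The LT-HSC value did not: rescaled, it was +0.04, with 11.4, 13.6 and 13.9 in knockout LT-HSC against 10.1, 12.5 and 14.8 in floxed control LT-HSC. The rescaled difference of differences was -1.21. Between cell types, MPP minus LT-HSC, Lncpint differed by -1.45 (rescaled -1.19) among knockouts and by +0.30 (rescaled +0.02) among floxed controls. Because the knockout groups enter both sets of differences, these are not separate observations. The 6 neutrophil markers summed to 1112 to 1942 TPM in knockout MPP and 393 to 1373 TPM in floxed control MPP. Mpo made up most of both sums, with means of 1177 and 746 TPM, and overlapped, as did Ltf. S100a8, S100a9, Camp and Ngp did not overlap and were higher in knockout MPP. S100a8 had 32.9 to 247 TPM there, against 4.61 to 14.8 TPM in floxed control MPP. The 6 B cell markers summed to 681 to 6022 TPM in knockout MPP and 2155 to 11705 TPM in floxed control MPP. The 5 monocyte and macrophage markers summed to 140, 116 and 181 TPM in knockout MPP, against 73.9, 73.9 and 99.4 TPM in floxed control MPP, which do not overlap, though 0 of 3 tested passed. The 10 stress and immediate early genes summed to 3396, 3757 and 2553 TPM in knockout MPP, against 3638, 5219 and 4607 TPM in floxed control MPP, which overlap. Of these genes, Atf3, Jun, Junb and Ier2 were each lower in knockout MPP without overlap, and the others overlapped. Hspa1a and Hspa1b had higher means in knockout MPP. None of the list passed. Atf3, singled out after its values were seen, had 67.3, 37.8 and 20.3 TPM in knockout MPP. It had 95.7, 159 and 136 TPM in floxed control MPP, and did not pass (limma, adjusted p = 0.105). The part of these markers in the Lncpint values was not tested. In bulk RNA, fewer cells of a type and less RNA per cell cannot be told apart.

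Lncpint occupies chr6:31093563-31218474 on the minus strand. Its nearest neighbour with measured values, 2210408F21Rik, starts 1877 bases beyond its 5′ side. That gene had 4.07, 5.18 and 5.38 TPM in knockout MPP, against 7.74, 4.05 and 4.56 TPM in floxed control MPP, which overlap; its log2 change of -0.10 did not pass limma's test over all genes (adjusted p = 1.00). In knockouts it fell in MPP relative to LT-HSC by 1.22 on the log2 scale (limma, adjusted p = 0.00134; rescaled -0.96, adjusted p = 0.00300). Mir29a and Mir29b-1, the nearest genes on the other side, 30816 and 30470 bases away, had no rows. The nearest coding genes, Klf14 and Tsga13, 134573 and 171993 bases away on that side, were at or near 0 TPM in the group means. Mkln1, 180354 bases away on the 5′ side, passed no test.

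Between knockout and floxed control LT-HSC of batch 1, the p53 targets Zmat3 and Trp53inp1 rose on the deposited scale, and neither passed after rescaling. Of the 9 targets, 2 rose and 0 fell; over all 14839 genes tested 45.2% passed (44.6% higher and 0.58% lower), so the members' share was below the background, and the median log2 change was +0.38 over the 9 members and +0.52 over all genes. On the rescaled values 0 of 9 passed, with 2 (Mdm2 and Zmat3) at an unadjusted p under 0.05, while 4.68% of all genes passed. The members' rescaled median was -0.09.

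Zmat3 had 3.55, 4.30 and 4.18 TPM in knockout LT-HSC, against 1.98, 0.843 and 2.56 TPM in floxed control LT-HSC. The groups do not overlap on either scale. The change was +0.89 (SE 0.23; limma, adjusted p = 0.00999), and +0.45 (SE 0.17, adjusted p = 0.125) rescaled. It passed on the deposited scale with any 1 of the 6 libraries left out, at +0.62 to +1.09.

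Trp53inp1, a nuclear protein that raises p53 activity, had 6.38, 9.21 and 9.37 TPM in knockout LT-HSC, against 6.03, 4.08 and 4.19 TPM in floxed control LT-HSC. The groups are separate by a narrow margin, and overlap after rescaling. The change was +0.69 (SE 0.21; limma, adjusted p = 0.0185), and +0.13 (adjusted p = 0.621) rescaled. It no longer passed without floxed control replicate 2 (adjusted p = 0.0572), knockout replicate 2 (adjusted p = 0.0777) or knockout replicate 3 (adjusted p = 0.0790).

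The cell-cycle inhibitor did not go with them. Cdkn1a had 109, 35.8 and 33.7 TPM in knockout LT-HSC, against 112, 28.3 and 71.7 TPM in floxed control LT-HSC. Replicate 1 was the highest of each group, and the groups overlap throughout. Its change was -0.26 (SE 0.47; limma, adjusted p = 0.641), and -0.90 (adjusted p = 0.263) rescaled.

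Among the death effectors, Bax, which forms pores in the mitochondrial membrane, had 26.0, 23.2 and 22.5 TPM in knockout LT-HSC, against 18.9, 5.35 and 24.3 TPM in floxed control LT-HSC, where replicate 2 was far below the other 5 libraries. Its change of +0.76 (SE 0.36) did not pass (limma, adjusted p = 0.0899). Bbc3, which frees Bax by binding BCL2-like proteins, differed by +0.47 (adjusted p = 0.163; rescaled -0.08). Mdm2 had 40.6, 50.5 and 52.8 TPM in knockout LT-HSC, against 38.0, 31.0 and 40.7 TPM in floxed control LT-HSC, with a change of +0.38 (limma, adjusted p = 0.0792) that was -0.26 (adjusted p = 0.147) on the rescaled values. The remaining members, the cyclin G1 gene Ccng1, the stress-induced mTORC1 inhibitor Sesn2 and Phlda3, differed by +0.35, +0.23 and +0.19, and by -0.28, -0.23 and -0.09 on the rescaled values, with none passing on either scale.

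**Figure D2:**
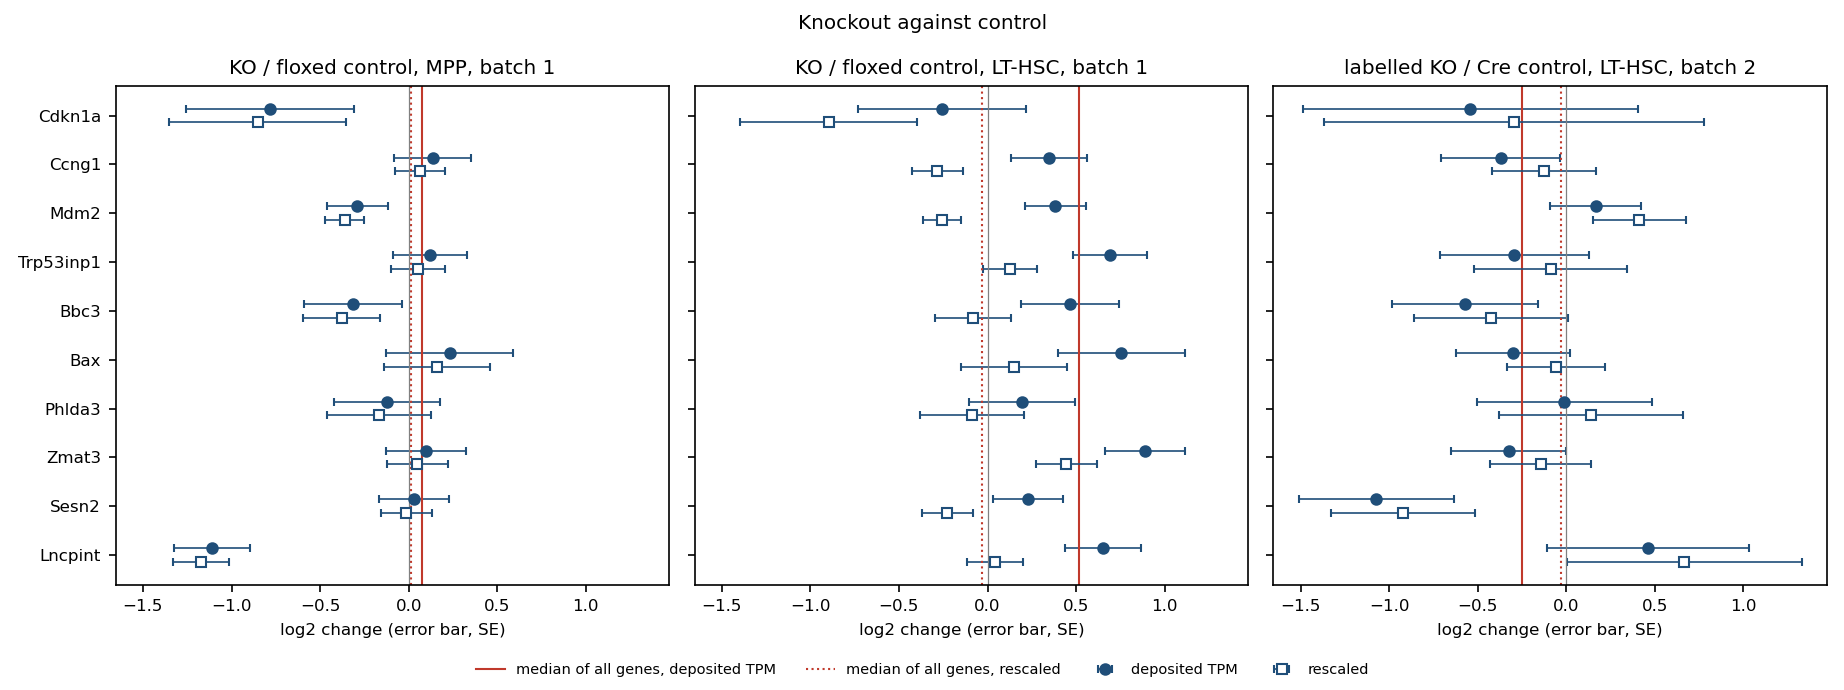
Log2 change of each member (log2 of TPM + 1; error bars, SE) in knockout against floxed control MPP, knockout against floxed control LT-HSC, and the labelled knockout against the Cre control; filled circles are deposited and open squares rescaled values, and vertical lines are the median of all genes (solid deposited, dotted rescaled). In batch 1 LT-HSC the deposited all-gene median sits at +0.52, with Zmat3 at +0.89 and Cdkn1a at -0.26; Lncpint in MPP lies at -1.11.

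Other cell-type markers moved with the same LT-HSC comparison. The 6 neutrophil markers summed to 144 to 1303 TPM in knockout LT-HSC and 42.1 to 68.3 TPM in floxed control LT-HSC, and 4 of 6 rose. The 6 B cell markers summed to 364 to 890 TPM in knockout LT-HSC and 9.83 to 216 TPM in floxed control LT-HSC, with Igkc the bulk of the knockout sums and Ms4a1 at 0 in 2 of the controls; 2 of the 4 tested rose. The 5 monocyte and macrophage markers summed to 39.6, 46.7 and 68.3 TPM in knockout LT-HSC, against 13.9, 13.4 and 20.6 TPM in floxed control LT-HSC, and 2 of 3 tested rose. The 5 stroma and endothelium markers summed to 6.89, 11.7 and 11.7 TPM in knockout LT-HSC, against 3.36, 2.75 and 2.33 TPM in floxed control LT-HSC, and 2 of 2 tested rose. Of 6 erythroid markers 4 fell, and 8 of 8 LT-HSC markers rose. These counts are on the deposited scale, where 44.6% of all genes rose. On the rescaled values 0 of 6 neutrophil, 0 of 4 B cell, 1 of 3 monocyte and macrophage, 1 of 2 stroma and endothelium and 3 of 8 LT-HSC markers rose, and 4 of 6 erythroid markers fell. The part of these cells in the Zmat3 and Trp53inp1 values was not tested.

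In MPP no p53 target passed between knockout and floxed control. The limma count was 0 of 9 on both scales, with 0.323% of all 14839 genes passing on the deposited and 0.526% on the rescaled values; at an unadjusted p under 0.05 it was 0 of 9 on the deposited and 1 of 9 (Mdm2) on the rescaled values. Mdm2 had 38.5, 44.7 and 44.7 TPM in knockout MPP, against 55.3, 51.0 and 50.4 TPM in floxed control MPP. These groups do not overlap on either scale. The change was -0.29 (SE 0.17, adjusted p = 0.960), and -0.36 (SE 0.11, adjusted p = 0.203) rescaled.

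Cdkn1a had 126, 59.9 and 79.8 TPM in knockout MPP, against 192, 123 and 131 TPM in floxed control MPP. Only the highest knockout library reached the range of the controls. The change of -0.78 (SE 0.47) did not pass (limma, adjusted p = 0.972). Bbc3 differed by -0.31, and the other 6 targets by -0.12 to +0.23.

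The test of whether the knockout difference itself differed between MPP and LT-HSC found 0 of 9 targets past limma's adjusted threshold, against 0.0809% of all genes, and 2 (Mdm2 and Zmat3) at an unadjusted p under 0.05 on the deposited values and 0 on the rescaled values. Mdm2 had the smallest adjusted p, with a difference, MPP minus LT-HSC, of -0.67 (adjusted p = 0.131), beside a median of -0.45 over all genes. The Zmat3 difference was -0.80 (adjusted p = 0.151) and that of Bbc3 -0.78 (adjusted p = 0.211). So Zmat3 and Trp53inp1 passed in LT-HSC and not in MPP, but the difference between the cell types was not shown for either.

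Knockout MPP differed from knockout LT-HSC in Zmat3 and Sesn2. Of the 9 targets, 0 were higher and 2 lower in MPP, where 19.5% of all genes passed (3.99% higher and 15.5% lower). The members' median was -0.24 and that of all genes -0.20. Zmat3 had 1.33, 1.63 and 2.04 TPM in knockout MPP, against 3.55, 4.30 and 4.18 TPM in knockout LT-HSC, and fell by 0.91 on the log2 scale (SE 0.23; limma, adjusted p = 0.00930). On the rescaled values, where 22.9% of all genes passed, it fell by 0.69 (adjusted p = 0.0116). The groups do not overlap.

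Sesn2 had 1.46, 1.21 and 1.93 TPM in knockout MPP, against 2.49, 2.86 and 3.00 TPM in knockout LT-HSC. These groups do not overlap. Sesn2 fell by 0.59 (SE 0.20; limma, adjusted p = 0.0493), and its rescaled value of -0.38 did not pass (adjusted p = 0.0736). With knockout LT-HSC replicate 2 or 3, or knockout MPP replicate 1, 2 or 3, left out, Sesn2 no longer passed, at -0.49 to -0.70 over all 6 such fits.

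Among floxed controls a different set passed. Mdm2 and Bbc3 were higher in MPP, 2 of 9 targets against 21.2% of all genes (15.5% higher and 5.62% lower), with a members' median of +0.29 beside +0.26 over all genes. Mdm2 had 55.3, 51.0 and 50.4 TPM in floxed control MPP, against 38.0, 31.0 and 40.7 TPM in floxed control LT-HSC, and rose by +0.51 (SE 0.17; limma, adjusted p = 0.0482). Bbc3 had 6.99, 10.5 and 8.52 TPM in floxed control MPP, against 4.41, 3.16 and 5.28 TPM in floxed control LT-HSC, and rose by +0.88 (SE 0.28; limma, adjusted p = 0.0358). Neither pair of groups overlaps.

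These 2 calls depended on the scale and on single libraries. Rescaled, Mdm2 (+0.21, adjusted p = 0.176) and Bbc3 (+0.63, adjusted p = 0.0504) did not pass, while Ccng1 (-0.57, adjusted p = 0.0118) and Sesn2 (-0.60, adjusted p = 0.00926) were lower in MPP; 23.9% of all genes passed on that scale. Neither Mdm2 nor Bbc3 passed without floxed control LT-HSC replicate 2 (adjusted p = 0.0688 and 0.129) or without floxed control MPP replicate 2 (0.118 and 0.135) or 3 (0.1001 and 0.0783). Mdm2 also did not pass without floxed control MPP replicate 1 (adjusted p = 0.162), nor Bbc3 without floxed control LT-HSC replicate 1 (adjusted p = 0.0652). Cdkn1a had 192, 123 and 131 TPM in floxed control MPP, against 112, 28.3 and 71.7 TPM in floxed control LT-HSC. All MPP libraries lay above all LT-HSC libraries, but the difference of +1.24 (SE 0.47) did not pass (limma, adjusted p = 0.0758).

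**Figure D3:**
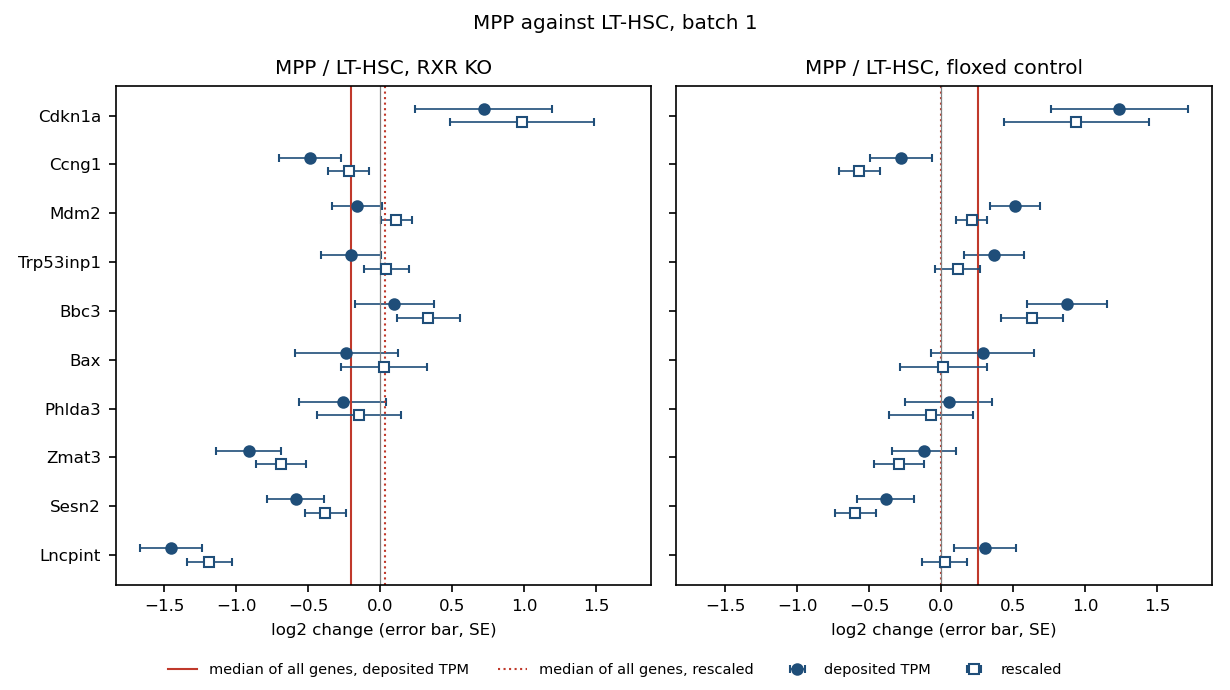
Log2 difference of each member between MPP and LT-HSC (log2 of TPM + 1; error bars, SE), among knockouts and among floxed controls of batch 1; filled circles are deposited and open squares rescaled values, and vertical lines are the median of all genes. Zmat3 lies at -0.91 among knockouts, Bbc3 at +0.88 and Cdkn1a at +1.24 among floxed controls.

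Summed markers of mature cells also differed between MPP and LT-HSC libraries, in part with overlap. The 6 B cell markers summed to 681 to 6022 TPM in knockout MPP, against 364 to 890 TPM in knockout LT-HSC, which overlap. They summed to 2155 to 11705 TPM in floxed control MPP, against 9.83 to 216 TPM in floxed control LT-HSC, which do not. Igkc and Ighm made up most of the MPP sums. Neutrophil sums likewise overlapped among knockouts, and were higher in MPP among floxed controls. Monocyte and macrophage sums were higher in MPP, and erythroid sums lower, in both genotypes without overlap. The part of these markers in the Mdm2, Bbc3, Zmat3 and Sesn2 differences was not tested.

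In batch 2 no member passed in any comparison. Between the labelled knockouts and the Cre controls limma passed 0 of 10 members and 0.0744% of 13445 genes; at an unadjusted p under 0.05 it was 1 member, Sesn2. Sesn2 had 0.751, 0.674 and 3.11 TPM in the labelled knockouts, against 4.08, 3.81 and 3.60 TPM in the Cre controls, which were the highest group for this gene. The groups do not overlap, but the third labelled knockout lay close to the controls and far above the first and second. Those lacked a value for 5270 and 8158 splice events, against 2282 in the third. Their summed LT-HSC markers were 272 and 216 TPM, against 554 TPM in the third. The part of these features in the Sesn2 values was not tested. The Sesn2 difference was -1.07 (SE 0.44, limma, adjusted p = 0.705).

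Bbc3 had 0.866, 0.790 and 1.07 TPM in the labelled knockouts, against 1.31, 1.59 and 2.77 TPM in the Cre controls. The labelled knockouts had the lowest mean of this gene among the 7 groups, and the 2 groups do not overlap. Its difference was -0.57 (SE 0.41, limma, adjusted p = 0.705). Lncpint, tested here because its choice did not use batch 2, differed by +0.46 (SE 0.57, adjusted p = 0.757), and +0.67 (SE 0.66, adjusted p = 0.930) rescaled.

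Values of the Myc allele group spread widely for 3 members and were highest in replicate 3. Cdkn1a had 76.0, 14.6 and 814 TPM with the Myc allele, 18.01, 22.8 and 36.5 TPM in the labelled knockouts, and 28.04, 36.8 and 46.7 TPM in the Cre controls. Replicate 3 stood 7.25-fold above the highest other LT-HSC library (112 TPM). Trp53inp1 had 5.51, 9.14 and 17.9 TPM with the Myc allele, 5.87, 2.56 and 7.25 TPM in the labelled knockouts, and 5.68, 6.38 and 6.54 TPM in the Cre controls. For Cdkn1a, replicate 1 also lay above every labelled knockout and Cre control library. So did replicate 2 for Trp53inp1 and for Lncpint (9.16 TPM). The lowest Myc allele library lay below every Cre control for Cdkn1a, Trp53inp1 and Lncpint. For the same 3 members, replicate 3 was the highest of all 21 libraries. The same library had the lowest TPM sum (691094) and, among batch 2, the highest summed stress and immediate early genes, 2975 TPM in a batch range of 805 to 2975 TPM. Their part in its Cdkn1a value was not tested.

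The Rxra junction was 0.647, 0 and 1.00 with the Myc allele, against 0, 0.0127 and 0 in the labelled knockouts. Differences between these groups therefore cannot tell the Myc allele and the Rxra exon loss apart. Myc allele replicate 2, at 0, also went against its label. Against the labelled knockouts, limma passed 0 of 10 members and 0% of all genes, and 1 member, Bbc3, had an unadjusted p under 0.05. Cdkn1a differed by +1.95 (SE 0.95), Bbc3 by +0.97 (SE 0.41), Trp53inp1 by +0.87 (SE 0.42) and Lncpint by +0.66 (SE 0.57), each at an adjusted p of 1.00. Without replicate 3 of the Myc allele group the Cdkn1a value was +0.43, that of Trp53inp1 +0.47 and that of Lncpint -0.03. Other omissions moved the values as well. Cdkn1a was +3.29 (SE 0.70) without Myc allele replicate 2, and Lncpint +1.45 (SE 0.40) without Myc allele replicate 1. Trp53inp1 was +0.52 (SE 0.42) without labelled knockout replicate 5. The Bbc3 value ran from +0.69 without Myc allele replicate 3 to +1.43 without Myc allele replicate 1.

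Against the Cre controls, limma passed 0 of 10 members and 0.104% of all genes, with 0 members at an unadjusted p under 0.05. Cdkn1a differed by +1.41 (adjusted p = 0.545) by -0.11 without replicate 3, and by +2.74 without replicate 2. Lncpint differed by +1.12 (SE 0.57, adjusted p = 0.503), by +0.43 without replicate 3, and by +1.91 (adjusted p = 0.0314) without replicate 1, where it passed. Both contrasts share the Myc allele libraries, so they do not stand for each other.

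**Figure D4:**
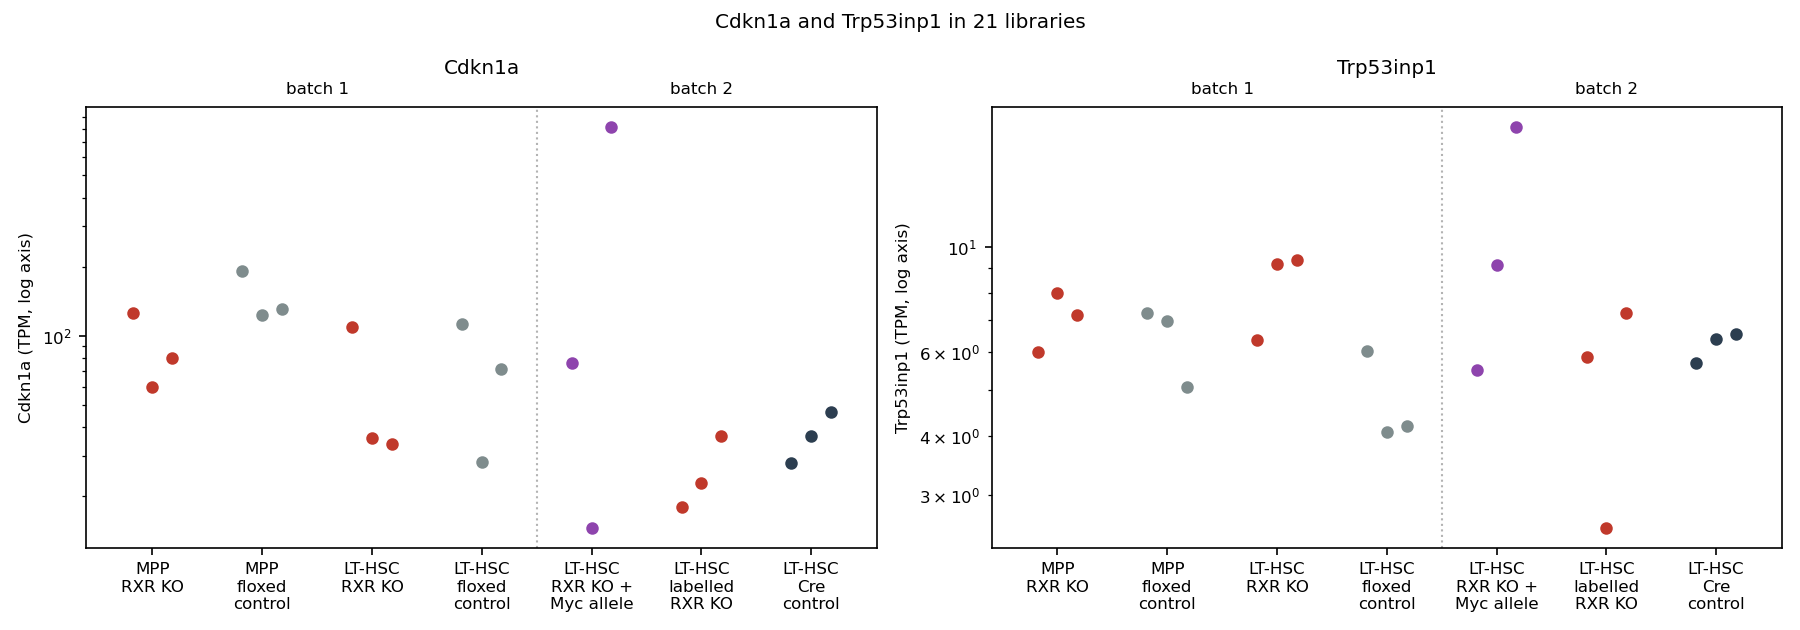
Cdkn1a and Trp53inp1 (TPM, both on log axes) in each of the 21 libraries, by group; points are libraries. The third Myc allele library stands at 814 TPM for Cdkn1a and 17.9 TPM for Trp53inp1, above every other library.

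The batch 1 knockouts and the batch 2 labelled knockouts were also pooled and set against the control LT-HSC of both batches, with the batch as a term. Of these 6 libraries, 3 are the labelled knockouts, whose Rxra junction, where measured, went against the label. No target passed (limma, 0 of 9, with 0.421% of 14492 genes passing; 0 targets on the deposited and 1, Sesn2, on the rescaled values had an unadjusted p under 0.05). The within-batch values went apart for several members. Zmat3 was +0.89 in batch 1 and -0.33 in batch 2, Trp53inp1 +0.69 and -0.29, Bbc3 +0.47 and -0.57, and Sesn2 +0.23 and -1.07. In batch 2, without labelled knockout replicate 5, Trp53inp1 was +0.07 and Zmat3 -0.18, without labelled knockout replicate 6 Trp53inp1 was -0.54, and without Cre control replicate 6 Bbc3 was -0.36. Lncpint was +0.30 there without Cre control replicate 4 and +0.30 without labelled knockout replicate 5. For Zmat3 the difference between the batches, batch 1 minus batch 2, was +1.22 (adjusted p = 0.0662). For Sesn2 that difference was +1.30 (adjusted p = 0.0698), for Bbc3 +1.04 (adjusted p = 0.0952) and for Trp53inp1 +0.98 (adjusted p = 0.1002). None of the 9 targets passed, beside 1.27% of all genes; 4 had an unadjusted p under 0.05 on the deposited and 1 (Mdm2) on the rescaled values. The median over all genes was itself +0.73. Without labelled knockout replicate 6, Trp53inp1, Zmat3 and Sesn2 passed, and without floxed control replicate 1 of batch 1 Zmat3 passed.

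The p53 gene itself gave no call in any comparison. Trp53 had 102, 130 and 110 TPM in knockout LT-HSC, against 106, 42.2 and 107 TPM in floxed control LT-HSC. Control replicate 2 lay far below the other 5 libraries. The change was +0.53 (limma, adjusted p = 0.128) and -0.12 rescaled.

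Of 23 tested regulators of p53, 7 rose and 0 fell in knockout LT-HSC of batch 1, beside 44.6% of all genes higher and 0.58% lower. Their median was +0.38 and that of all genes +0.52. On the rescaled values 0 passed, beside 4.68% of all genes. Those that rose include the DNA damage kinases Atm (+0.86, adjusted p = 0.0168) and Chek2 (+0.76, adjusted p = 0.0117) and the p53-phosphorylating kinase Hipk2 (+0.52, adjusted p = 0.0372). Of 37 other p53 targets 16 rose and 1 fell (median +0.45), beside the same 44.6% and 0.58% of all genes. Rescaled, 1 rose and 2 fell, beside 4.68% of all genes passing in either direction. Rrm2b, a ribonucleotide reductase subunit, rose by +1.01 (adjusted p = 0.00637), and Steap3, a metalloreductase, fell by 0.92 (adjusted p = 0.0265). Dglucy, a D-glutamate cyclase, rose on both scales, by +1.25 (adjusted p = 0.00244) and +0.78 (adjusted p = 0.0161). All p-values are from limma over all genes.

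Among 12 tested genes of the BCL2 family and the caspases, 4 rose in knockout LT-HSC on the deposited scale. That is a smaller share than the 44.6% of all genes that rose. Rescaled, 1 rose, beside 4.68% of all genes passing in either direction. The survival gene Bcl2 rose by +1.13 (adjusted p = 0.00311; rescaled +0.52, adjusted p = 0.0371). Of 3 tested CDK inhibitors beside Cdkn1a, 2 rose on the deposited scale, beside the same 44.6% of all genes. Cdkn2c rose by +1.02 (limma, adjusted p = 0.00980) and Cdkn1b by +0.52 (limma, adjusted p = 0.0296). The median over all genes was itself +0.52, so the Cdkn1b change is no larger than that median. The 10 stress and immediate early genes had 0 calls, with 0 at an unadjusted p under 0.05. In knockout MPP, and in every batch 2 comparison, none of these lists had a call with limma. At an unadjusted p under 0.05, knockout MPP had 1 regulator, 2 other targets, 1 BCL2 family gene or caspase and 5 stress genes, and each list had 0 to 2 in each batch 2 comparison.

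Between the cell types, some genes of these lists differed by more than any p53 target among the members. Ndn, necdin, which binds p53 and is known for stem cell quiescence, fell in MPP by 3.49 among knockouts (adjusted p = 7.6e-08) and by 2.53 among floxed controls (adjusted p = 2.44e-06). Cdkn1c, the CDK inhibitor p57, fell in MPP by 2.18 among knockouts and by 1.92 among floxed controls. Bcl2l11, which encodes the death inducer BIM, rose in MPP by +1.95 among knockouts and by +2.91 among floxed controls. Pmaip1, the p53 target NOXA, rose in MPP by +1.08 among knockouts and by +1.81 among floxed controls. Among the other p53 targets in knockouts, 3 were higher and 5 lower in MPP, beside 3.99% and 15.5% of all genes. Rescaled, 6 were higher and 4 lower, with 22.9% of all genes passing in either direction. In floxed controls 9 were higher and 4 lower in MPP, beside 15.5% and 5.62% of all genes. Rescaled, these counts were 8 and 7, with 23.9% of all genes passing in either direction.

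Splicing was deposited as the fraction of reads that include an event, listed only for events that vary between libraries. It held 28 events of 4 members: 16 in Mdm2, 8 in Lncpint, 3 in Trp53inp1 and 1 in Cdkn1a; 20 of the 28 were intron retention. Several Mdm2 events describe the same intron from its 2 ends, so they are not separate observations. With limma on the fractions and a minimum difference of 0.1, none of the 28 passed in batch 1 (background 0.154% of 39715 events in LT-HSC and 0.239% in MPP, knockout against floxed control; 0.259% in knockouts and 0.441% in floxed controls, MPP against LT-HSC). At an unadjusted p under 0.05 there were 6 events, all in Mdm2, in LT-HSC, 1 event, in Lncpint, in MPP, 0 between MPP and LT-HSC in knockouts and 10 in floxed controls. In batch 2 none of 17 tested events passed, and 0 had an unadjusted p under 0.05; the background there was 0.0283% of 28309 events for the labelled knockouts against the Cre controls, 0.0177% for the Myc allele against the labelled knockouts and 0.0212% for the Myc allele against the Cre controls.

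In Mdm2, reads into an intron near its 5′ end made up a fraction of 0.37, 0.55 and 0.34 in knockout LT-HSC, against 0.15, 0.19 and 0.29 in floxed control LT-HSC. The groups do not overlap, and the difference of 0.21 (SE 0.07) did not pass (limma, adjusted p = 0.338). The same event was 0.44, 0 and 0.13 in the labelled knockouts and 0 in all 3 Cre controls. In MPP it was 0.35, 0.42 and 0.40 in knockouts, against 0.41, 0.53 and 0.36 in floxed controls, which overlap.

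A cassette exon event of Mdm2 (junction chr10:117709784-117709946), singled out after its values were seen, was 0.23, 0.27 and 0.44 in the labelled knockouts, against 0.95, 1.00 and 0.65 in the Cre controls. These groups do not overlap. It lacked a value in Myc allele replicate 2; fitted without that library, the difference was -0.55 (SE 0.11, limma, adjusted p = 0.960 over 33011 events). In batch 1 the same event was 0.77, 0.81 and 0.67 in knockout LT-HSC and 0.75, 0.64 and 0.82 in floxed control LT-HSC, with no separation. Events without a value numbered 964 to 11662 per library, among the most in labelled knockout replicate 5 (8158).

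**Figure D5:**
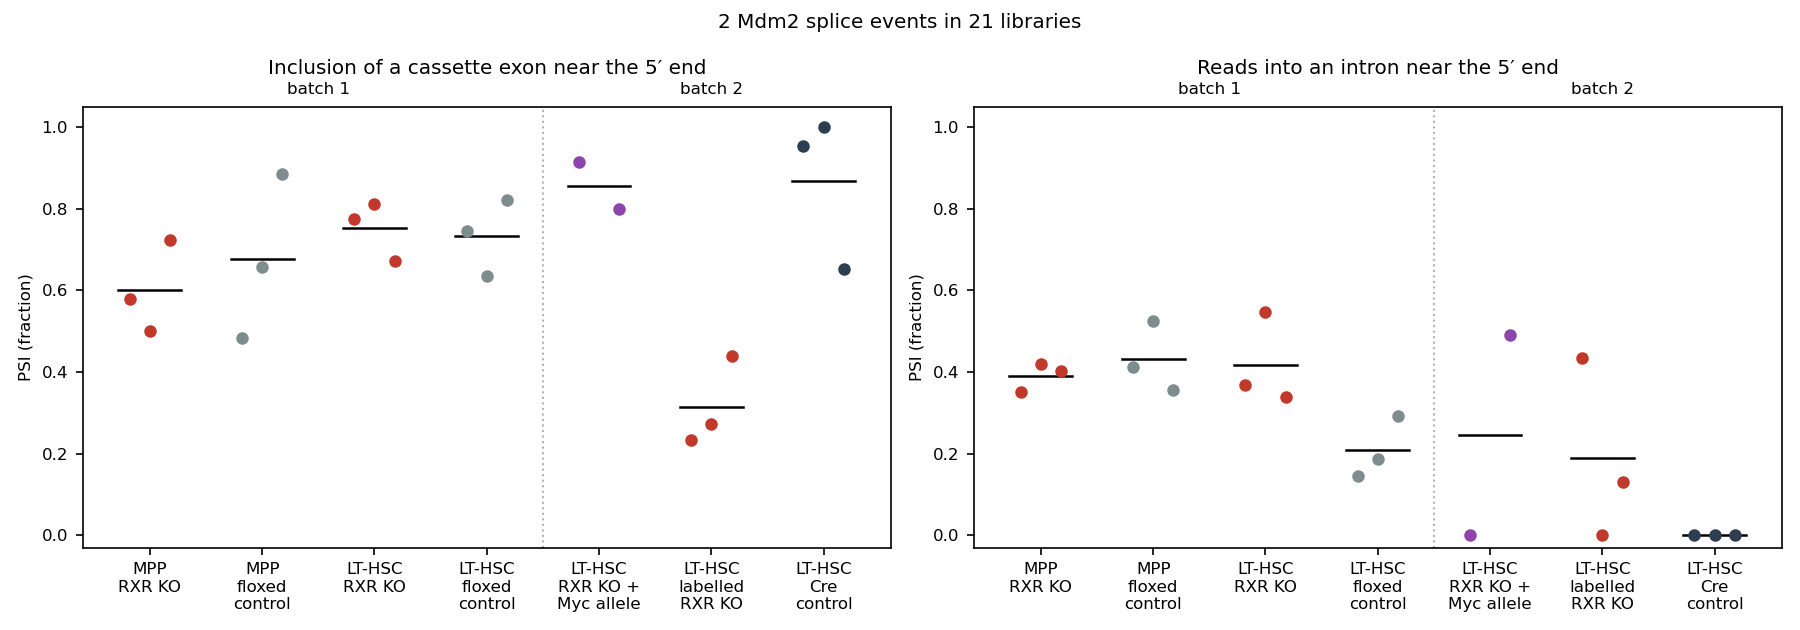
Inclusion fraction (0 to 1) of the Mdm2 cassette exon (left panel) and intron (right panel) events in each library, by group; points are libraries, lines are group means, and the Myc allele group has 2 points because 1 library had no value. The cassette exon lies at 0.23 to 0.44 in the labelled knockouts and at 0.65 to 1.00 in the Cre controls, while the batch 1 LT-HSC groups overlap.

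In Lncpint, reads into an intron near its 5′ end made up a fraction of 0.50, 0.70 and 0.59 in knockout MPP, against 0, 0.42 and 0.35 in floxed control MPP. The groups do not overlap. The difference of +0.34 (SE 0.11) did not pass (limma, adjusted p = 0.391). A link between this share and the Lncpint level of the same libraries was not tested.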

How the data were processed

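RNA of 21 sorted bone marrow samples was amplified (Ovation RNA-seq v2), made into libraries with Nextera XT and sequenced in pairs, per the labels' protocols. Per the submitters' processing notes, kallisto, STAR 2.6 and the mm10 build were used; the authors deposited TPM per gene (28987 identifiers, 94.73% with a symbol) and the inclusion fraction per splice event (46443 events, lowest spread 0.15). The deposited TPM keep no depth. How events were called is not given in the sources used here.

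Here log2(TPM + 1) was fitted with limma 3.58.1 (R 4.3.3, trended variance, Benjamini-Hochberg over all genes, threshold 0.05) for genes that reached 1 TPM in 3 or more libraries of a fit: the 12 libraries of batch 1, the 9 of batch 2, and 12 LT-HSC libraries of both batches with a batch term. Fold changes on this scale understate the change of low genes. Fractions were fitted likewise. The scripts were tested on simulated data. Figures were drawn with matplotlib 3.10.9 (Python 3.11.15). Members and lists were chosen with earlier results of these data known. Genes of each list were named by smallest adjusted p within a comparison; genes named outside that rule were chosen after their values were seen. One gene of the BCL2 family and caspase list is not reported here. Promoter windows are from RefSeq. Per the labels' protocols cells came from "pulled" animals, read here as pooled; whether each replicate is its own pool is not given in the sources used here, so p-values cover only the variation among these samples, which may be technical.

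LT-HSC and MPP libraries of batch 1 share names in the descriptions. The deviations of same-named libraries from their group means correlated at 0.539, 0.155 and 0.256 in knockouts, which pairs them by the rule of 0.1 in every pair, and at 0.065, 0.101 and 0.106 in floxed controls, which does not. Alternatives were rescaling by median-of-ratios size factors, a pseudocount of 0.1 TPM, no filter, replicate blocks and leaving out each library.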

Additional observations from a re-analysis of the deposited data

Results flagged for a closer look

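Cdkn1a, in the 3 knockout LT-HSC libraries of batch 1 taken with the 3 labelled knockouts of batch 2, had 1 library far from the others. Knockout replicate 1 of batch 1 had 109 TPM, and the next highest of the 6 libraries had 36.5 TPM. The gap to the next library, set against the whole range of the group, is what brought it here. Replicate 1 was also the highest Cdkn1a library of floxed control LT-HSC (112 TPM), floxed control MPP (192 TPM) and knockout MPP (126 TPM). In all, 20 such groups were examined (10 members, in knockouts with labelled knockouts and in controls of both batches). Chance alone flags about 1 in 20 where a group has 1 common spread. These groups join 2 batches, so that rate need not hold for them.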

How the results depend on the processing

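Of the 169 recomputed counts of members or matches, 146 stayed within 1.5 times the main count, or at 0 where it was 0. Most main counts were 0, so this share says little about the calls. Where members had passed, leaving out 1 library often moved the count further. It did so in 4 of 6 fits for knockout against floxed control LT-HSC of batch 1. For MPP against LT-HSC it did so in 4 of 6 fits in floxed controls and 5 of 6 in knockouts. No change that passed turned direction, but values that did not pass did: Mdm2 in LT-HSC (+0.38, rescaled -0.26), Cdkn1a for the Myc allele against the Cre control (+1.41, -0.11 without Myc allele replicate 3), Lncpint for the Myc allele against the labelled knockouts (+0.66, -0.03 without it) and Trp53inp1 in batch 2 (-0.29, +0.07 without labelled knockout replicate 5) are among them. The cause of these changes of direction was not tested for any member. In knockout against floxed control LT-HSC of batch 1, 2 calls became 0 after rescaling and 1 to 4 with a library left out (4 without knockout replicate 1, adding Mdm2 and Bbc3; 1, Zmat3, without floxed control replicate 2 or knockout replicate 2 or 3). Between MPP and LT-HSC in knockouts, 2 calls became 1 after rescaling, with a pseudocount of 0.1 TPM, without the filter and with a replicate block by number, and 1 to 2 with a library left out; the block by shared name gave 2, Zmat3 and Sesn2 again. In floxed controls, 2 became 1 without the filter and 0 to 2 with a library left out; the block by shared name, whose pairs did not meet the rule, gave 3, with Cdkn1a at +1.24 (adjusted p = 0.00878). For the Myc allele against the Cre control, 0 calls became 1 (Lncpint) without Myc allele replicate 1, a range of 0 to 1. For the difference between batches, 0 became 0 to 3 with a library left out. The 2 promoters with a decamer pair became 1, Cdkn1a, at 1 mismatch. With numbers as a replicate block, knockout and floxed control libraries of batch 1 gave 2 calls in LT-HSC and 0 in MPP, and batch 2 gave 0; same-numbered deviations correlated at -0.071 to 0.295 and -0.153 to -0.016, so the numbers do not pair these samples. No paired analysis was possible for the Myc allele group because it shares no replicate numbers with the other batch 2 groups. TPM keep no depth, so the counting error of low members such as Phlda3 could not be given.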

Other observations

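The genes whose log2 levels followed Cdkn1a most closely over the 21 libraries, by Pearson's r among genes that reached 1 TPM in 10 or more of them, were Slc25a25 (r = 0.958), Gadd45b (0.922), Klf13 (0.901), Tnfrsf12a (0.894) and Tiparp (0.887). Without the third Myc allele library, which stands apart in Cdkn1a, the values over 20 libraries were 0.938, 0.886, 0.826, 0.815 and 0.803. Those closest to Lncpint were ENSMUSG00000092267 (0.890), Chrna2 (0.884), Gm16185 (0.880), Ago3 (0.868) and Prkag2os1 (0.868). The libraries share cell type and batch, so these values are given as a description with no p.

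Among the members, Ccng1 and Sesn2 correlated at 0.805 over the 21 libraries (0.789 over the 15 LT-HSC libraries), Bax and Zmat3 at 0.755 (0.768), Mdm2 and Bbc3 at 0.754 (0.626), and Bbc3 and Lncpint at 0.711 (0.850). Cdkn1a and Trp53inp1, both highest in the third Myc allele library, correlated at 0.431, and at 0.036 over the 20 libraries without it.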
